A study of Bos taurus with 16 samples.

Results

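The genes described here are 41 bovine genes of mitosis and its spindle checkpoint, chosen by their symbols in the gene name column of the deposited tables. All 41 were found among the 38959 genes of the first blastocyst table, the 37429 of the second and the 28303 of the table of bovine embryonic stem cells (bESCs). Single blastocysts from in vitro fertilization were sequenced by SMART-seq, which amplifies the polyadenylated RNA of a whole embryo, so each library is 1 embryo collected on day 8. In the first table, 3 LY10 blastocysts had been cultured with 10 μM LY2955303 (LY), an inhibitor of retinoic acid receptor gamma (RARγ), from the 2-cell stage, and 3 DMSO blastocysts with its solvent. In the second table, 2 cell2_LY and 2 cell16_LY blastocysts had received LY from the 2-cell and the 16-cell stage, and 2 LY_DMSO blastocysts served both as the vehicle control; no LY concentration is given for them in the sources used here. All embryos were wild type and, by the study's methods, grew in medium with LIF, FGF2 and IGF1. The third table holds 2 bESC_LY and 2 bESC_tifx libraries of wild-type bESCs kept in TIFX medium on mouse feeder cells, with LY given to the first group at 10 μM for 3 days. The bESC libraries carry the numbers 2 and 3, and the sources used here do not say whether a number marks a culture or a line.

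Mitosis is started by CDK1 bound to cyclin B, after the phosphatases of the CDC25 family have overcome WEE1. The spindle checkpoint, built from the BUB proteins, MAD2 and the kinase TTK at unattached kinetochores, holds back CDC20 until every chromosome is attached. CDC20 then turns on the anaphase-promoting complex, cyclin B and securin (PTTG1) are destroyed, and separase (ESPL1) opens the cohesin rings. Most of these genes are transcribed in a wave in G2 and M phase under FOXM1 and MYBL2, so in a tissue their RNA is a common sign of dividing cells. An early embryo also divides on transcripts that the oocyte has stored, and the blastocyst, with its trophectoderm, epiblast and hypoblast, depends on its own.

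Each blastocyst library had between 7905768 and 17343140 reads on genes and each bESC library between 29055323 and 31230432. The trophectoderm markers CDX2, GATA2, GATA3, KRT8, KRT18, TFAP2A, TFAP2C, IFNT2 and PTGS2 had reads in all 12 blastocysts, with summed levels of 2937 to 9901 FPKM (fragments per kilobase of gene, scaled to sequencing depth). In the bESC libraries their sum was 98.7 to 296 FPKM, while the epiblast markers summed to 1986 to 2126 FPKM against 367 to 901 in blastocysts. Oocyte markers summed to at most 9.88 FPKM in any blastocyst, and between 2 and 6 of the 12 had no read. DMSO replicate 3 had the highest level of the DMSO libraries in 37 of the 41 mitosis genes, and cell2_LY replicate 1 the lowest of the second table in 34. The ratio of the library size behind the FPKM to the gene reads was 1.23 for cell2_LY replicate 1, while the other blastocysts had ratios of 0.949 to 1.07. Counts of calls without each of these 2 libraries stand beside the results, with fold changes for the genes whose call or size they moved most.

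The 41 genes took 0.244%, 0.237% and 0.366% of the summed FPKM in the DMSO blastocysts and 0.459%, 0.501% and 0.430% in the LY10 blastocysts. All 3 LY10 libraries lay above the DMSO libraries, with DMSO replicate 3 nearest to them. In the second table the share was 0.461% and 0.468% in LY_DMSO, 0.347% and 0.363% in cell16_LY, and 0.245% and 0.334% in cell2_LY. There the vehicle blastocysts were the highest and the groups did not overlap. The shares were 0.409% and 0.401% in bESC_tifx and 0.407% and 0.400% in bESC_LY. The tables were normalized separately, so no test was made between them, and in whole embryos fewer dividing cells and less RNA per cell cannot be told apart.

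**Figure D1:**
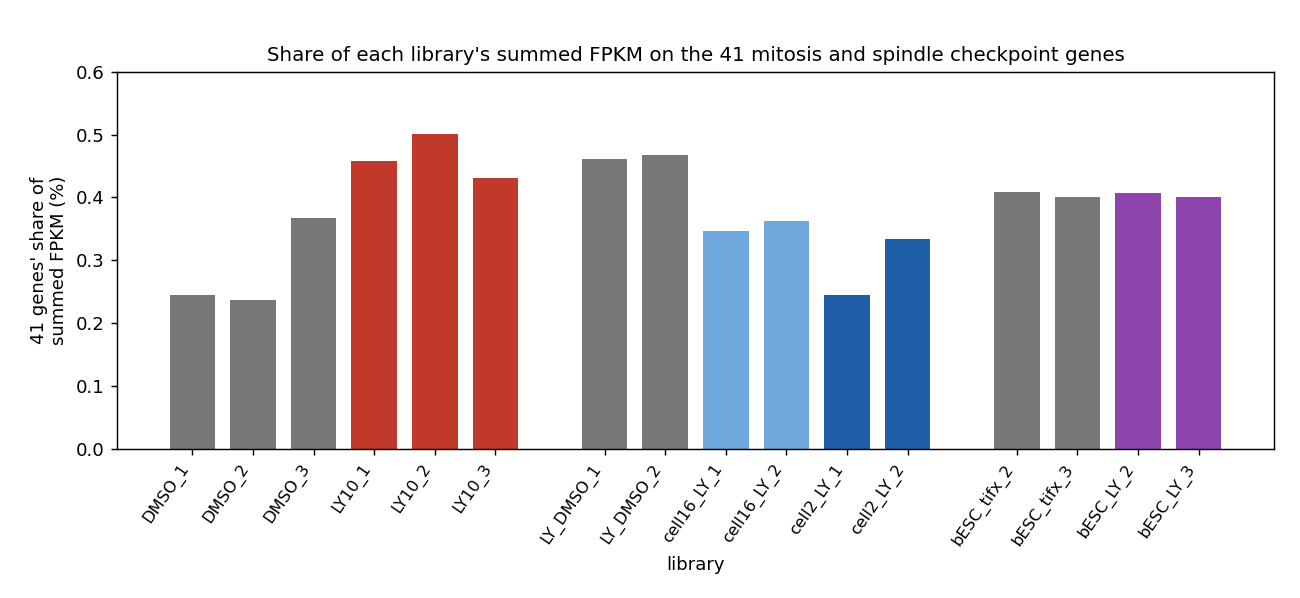
Share of each library's summed FPKM (y axis, percent) that fell on the 41 mitosis and spindle checkpoint genes, 1 bar per library, with the 3 tables set apart by gaps. LY10 (red) lies above DMSO (grey) in the first table at 0.430% to 0.501% against 0.237% to 0.366%, cell2_LY (dark blue) and cell16_LY (light blue) lie below LY_DMSO (grey) in the second, and the bESC groups (purple and grey) are alike.

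In DMSO blastocysts the level per length ran from a mean of 219 FPKM for UBE2C, the ubiquitin-conjugating enzyme of the anaphase-promoting complex, to 0.282 FPKM for MKI67, which encodes the Ki-67 protein that coats mitotic chromosomes, with a median over the genes of 26.3 FPKM. Next to UBE2C stood PTTG1 at 199.7 ± 20.01 FPKM (SD, 3 libraries), MAD2L1 at 181 ± 81.4 and BUB3 at 134 ± 19.5. Only 2 of the 40 pairs of neighbours in this order had libraries that did not overlap, so most neighbours did not differ beyond their spread. In LY_DMSO the order was led by CCNB1, cyclin B1, at 296 ± 40.3 FPKM (SD, 2 libraries), the median was 43.8 FPKM, and 15 of 40 neighbour pairs did not overlap. In bESC_tifx it was led by TOP2A, the topoisomerase that untangles sister chromatids, at 224 ± 13.5 FPKM, the median was 38.0 FPKM, and 9 of 40 neighbour pairs did not overlap. MKI67 stood at 65.4 ± 28.3 FPKM in bESC_tifx and PLK1 at 64.8 ± 14.3, against 0.282 ± 0.116 and 1.82 ± 1.86 in DMSO. Gene models, library kits and scaling differ between these tables, so the gap is given as a description.

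The symbols MAD2L1 and PTTG1 need care, and this was seen only after their values were known. In both blastocyst tables MAD2L1 is a gene at chr15:60615749-60616538 on the minus strand, whose length of 790 bases equals its span. Another protein-coding gene annotated as MAD2L1-like, LOC780876 on an unplaced scaffold, had a mean of 25182 normalized counts (reads scaled to a common library size) in the first table against 1492 for MAD2L1. The symbol in the bESC table belongs to a gene on an unplaced scaffold as well. How reads were shared between the copies was not examined here. PTTG1 in the blastocyst tables is a model that RefSeq's gene table lacks, while RefSeq's own PTTG1, listed there as LOC508043, had no read in any blastocyst. The positions of 38 of the 41 genes in the blastocyst tables equal those of RefSeq on ARS-UCD2.0.

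The comparison of LY10 with DMSO asked which genes differ in blastocysts cultured with LY from the 2-cell stage. Of the 41 mitosis genes 37 had a higher mean on the log2 scale in LY10 and 4 a lower one. The median log2 fold change of the 41 was 0.89 against -0.05 over all 14249 genes tested. Counts of genes with a higher or lower mean in the comparisons below are also on the log2 scale. A gene was called upregulated or downregulated when its p before adjustment was under 0.05 and its log2 fold change was beyond 1 in either direction. By this rule 16 (39.0%) were upregulated, against 6.20% of all genes tested, and 1 (2.44%) was downregulated, against 8.51%. Every LY10 library lay above every DMSO library for 23 genes (56.1%), where 13.8% of all genes did so, and below for 3 (7.32%), where 14.4% did. After Benjamini-Hochberg adjustment in limma 0 members were under 0.05, with 0.0140% of all genes there, although 26 members had an unadjusted p under 0.05, and voom weights gave 0 as well. The smallest adjusted p of a member was 0.0772. With sample weights, which let noisy libraries count less, 23 members were under 0.05, but so were 1551 of all genes tested, against 2 in the main fit. Without DMSO replicate 3 there were 21 members and 1964 of all genes tested. In both settings more genes thus passed adjustment among all genes tested as well, not only among the members. With sample weights the 23 are of 41 members and the 1551 of 14249 genes. The count of 17 called members fell to 8 without DMSO replicate 1, to 10 without DMSO replicate 2 and to 10 without LY10 replicate 1, while it was 20 without DMSO replicate 3.

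Cyclin B1 was upregulated and its kinase was not. CCNB1 (chr20:10507985-10517659, minus strand) stood at 87.5, 94.4 and 155 FPKM in the DMSO blastocysts and at 258, 218 and 231 FPKM in the LY10 blastocysts. Every LY10 library was above every DMSO library, and DMSO replicate 3 was the highest control. The log2 fold change was 1.11 ± 0.26 (SE; adjusted p = 0.0801 from limma). CDK1, the kinase itself, read 35.7, 40.7 and 47.8 FPKM in DMSO and 39.2, 48.2 and 45.9 in LY10. These groups overlapped (log2 fold change 0.11 ± 0.21). CCNB2, cyclin B2, had 25.1, 40.9 and 44.4 FPKM in DMSO and 61.1, 62.7 and 60.7 in LY10, without overlap but short of the fold needed for a call (0.78 ± 0.26; adjusted p = 0.134 from limma). CCNA2, cyclin A2, which acts from S phase into early mitosis, had 77.9, 86.9 and 90.5 FPKM in DMSO and 113, 93.2 and 86.3 in LY10, and LY10 replicate 3 fell among the controls (0.19 ± 0.21).

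Of the 3 genes of the entry switch 1 was called. CDC25B, a phosphatase that activates CDK1 at the centrosome, was the only downregulated member, with 2.38, 3.93 and 1.83 FPKM in DMSO and 1.45, 1.43 and 0.984 in LY10. The groups did not overlap, but these levels rest on 25 to 130 reads per library (log2 fold change -1.01 ± 0.43; adjusted p = 0.211 from limma), and the call held in 3 of 17 alternative analyses. CDC25C had a log2 fold change of 0.20 and WEE1, the kinase that keeps CDK1 inactive, of 0.15, and neither passed.

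PLK1, AURKA and NEK2, grouped here as kinases of the centrosome and spindle poles, were all upregulated. PLK1, polo-like kinase 1 (chr25:21334524-21345063, plus strand), which drives centrosome maturation and mitotic exit, had the largest change of the 41 genes. It read 1.11, 0.430 and 3.93 FPKM in DMSO and 13.4, 12.2 and 8.57 in LY10, that is 33, 10 and 83 reads against 227, 421 and 153. The lowest LY10 library was still above the highest control, DMSO replicate 3 (log2 fold change 3.12 ± 0.69; adjusted p = 0.0786 from limma), and without that control the change was 3.93. AURKA, the Aurora kinase of the spindle poles, had 39.5, 66.5 and 86.3 FPKM in DMSO and 147, 113 and 111 in LY10. The controls differed among themselves by more than the LY10 libraries did, and still lay below them (1.01 ± 0.30; adjusted p = 0.113 from limma). NEK2, which separates the centrosomes (chr16:71773338-71785935, plus strand), had 13.9, 14.2 and 21.7 FPKM in DMSO and 36.5, 37.0 and 30.4 in LY10, again without overlap (1.09 ± 0.26; adjusted p = 0.0818 from limma).

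The spindle checkpoint genes gave a weaker picture than their target CDC20. BUB1, the kinase that recruits the checkpoint to kinetochores, had 9.13, 12.03 and 31.2 FPKM in DMSO and 30.9, 35.2 and 30.6 in LY10. It passed the threshold although DMSO replicate 3 lay among the LY10 libraries (1.09 ± 0.41; adjusted p = 0.169 from limma; 1.62 without that control), and it kept the call in 12 of 17 alternatives. TTK, also known as MPS1, had 6.03, 8.43 and 11.9 FPKM in DMSO and 11.8, 12.2 and 11.8 in LY10, with DMSO replicate 3 again level with LY10 (0.50 ± 0.28). BUB1B and BUB3, both parts of the complex that binds CDC20, had log2 fold changes of 0.69 and 0.56 without overlap of the groups, and neither reached the fold needed. The gene listed as MAD2L1 had 139, 129.9 and 275 FPKM in DMSO and 171, 168 and 181 in LY10 (0.02 ± 0.30). In contrast the MAD2L1-like gene LOC780876 had 2797, 3730 and 2080 FPKM in DMSO and 1366, 1622 and 1713 in LY10, lower in every LY10 library (-0.84 ± 0.26; adjusted p = 0.116 from limma).

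CDC20 itself, the activator of the anaphase-promoting complex (chr3:102655153-102659116, minus strand), had 17.3, 15.9 and 37.8 FPKM in DMSO and 109.6, 75.6 and 75.9 in LY10. All LY10 libraries were far above DMSO replicate 3, the highest control, and the log2 fold change was 1.97 ± 0.35 (adjusted p = 0.0783 from limma). PTTG1, securin, went the other way, with 178, 218 and 203 FPKM in DMSO and 142, 114 and 165 in LY10. All 3 LY10 libraries were below the controls, by less than the fold needed for a call (-0.52 ± 0.22; adjusted p = 0.206 from limma). ESPL1, separase, had 1.40, 1.07 and 1.47 FPKM in DMSO and 3.61, 2.83 and 1.43 in LY10, so that LY10 replicate 3 fell among the controls (0.90 ± 0.40; adjusted p = 0.225 from limma). UBE2C had a log2 fold change of -0.01.

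**Figure D2:**
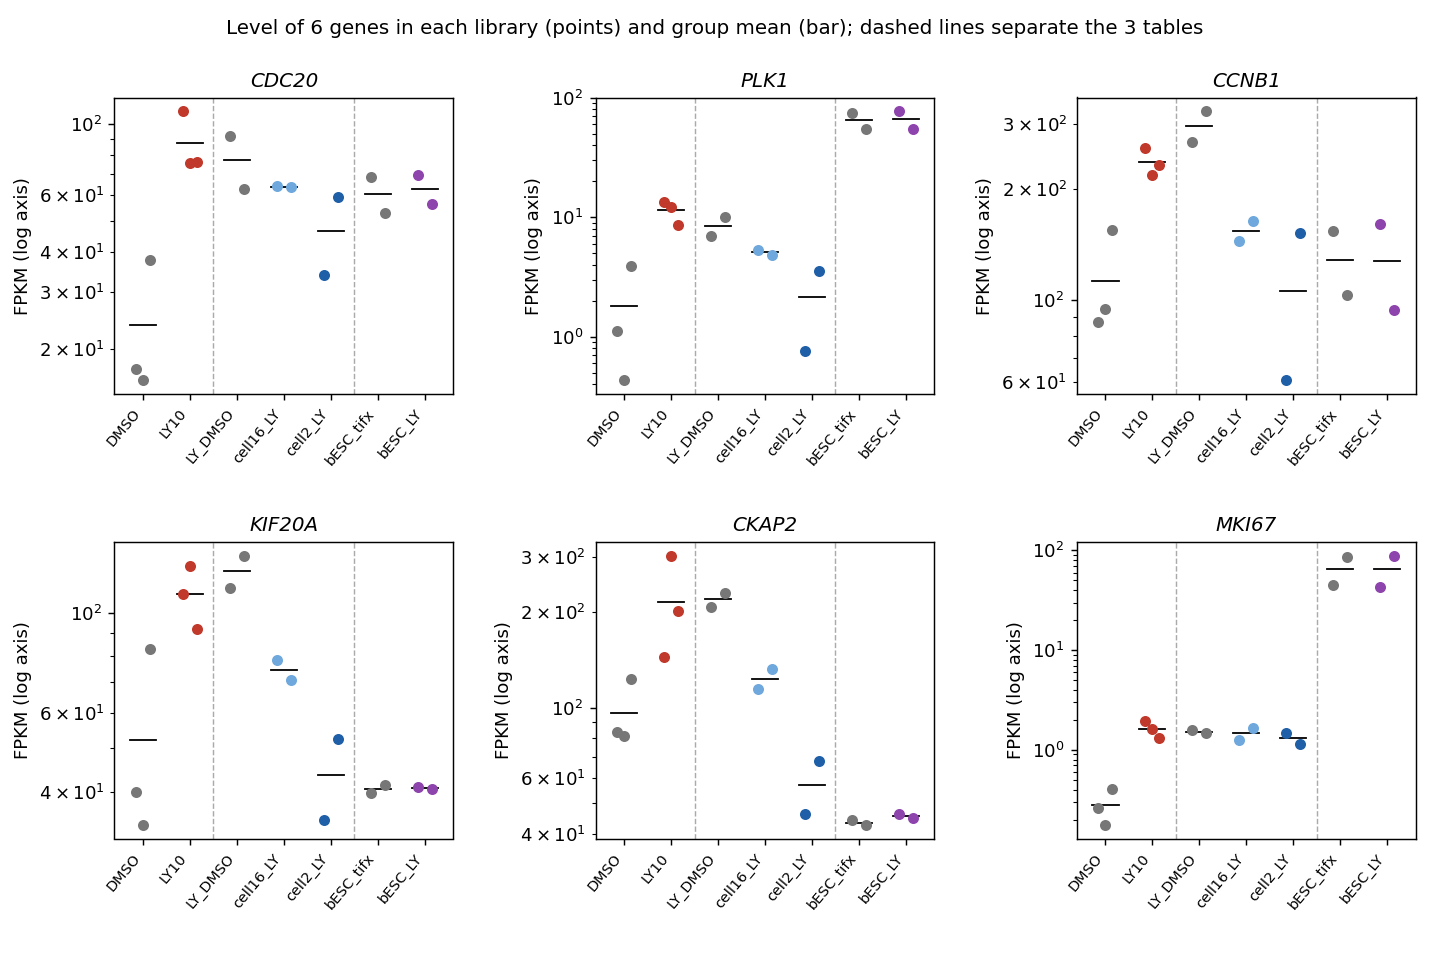
FPKM on a log axis (y) of CDC20, PLK1, CCNB1, KIF20A, CKAP2 and MKI67 in every library (points), with the group mean as a bar and dashed lines between the 3 separately normalized tables (x, groups). The LY10 points lie above all DMSO points in each panel, and cell2_LY lies below LY_DMSO, for MKI67 only narrowly. The 2 bESC groups lie close together, with MKI67 at 42.6 to 88.8 FPKM in bESCs and at most 1.95 FPKM in blastocysts.

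In the chromosomal passenger complex, which corrects wrong attachments and later steers cytokinesis, 2 of 4 genes were upregulated. AURKB, its Aurora kinase (chr19:27835751-27840837, minus strand), had 15.1, 14.9 and 32.6 FPKM in DMSO and 57.8, 51.4 and 48.4 in LY10. The groups were well apart (1.43 ± 0.33; adjusted p = 0.0791 from limma). CDCA8, borealin, had a log2 fold change of 1.09. INCENP and BIRC5, the scaffold and survivin, had 0.95 and 0.36 and did not pass. INCENP lies within the annotated span of CSKMT on the same strand, so their reads can be confused.

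At the centromere and the kinetochore 2 of 7 genes were upregulated, CENPA, the centromeric histone, at 1.03 and SPC24, an arm of the NDC80 complex that binds microtubules, at 1.06. Its partners did not follow. SPC25 had a log2 fold change of -0.68 with every LY10 library below every control, NDC80 of 0.02 and NUF2 of 0.41. CENPE and CENPF, a kinetochore motor and a kinetochore protein of G2, had 0.41 and 0.79.

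Of the spindle motors and assembly factors KIF2C and CKAP2 were upregulated. KIF2C (chr3:101248076-101266825, minus strand), which pulls wrongly attached microtubules apart, had 7.53, 9.001 and 11.99 FPKM in DMSO and 20.5, 17.5 and 18.9 in LY10. No library overlapped (1.02 ± 0.24; adjusted p = 0.0818 from limma). CKAP2, a spindle protein that nucleates microtubules, had a log2 fold change of 1.13, TPX2, the activator of Aurora A, of 0.99, and KIF11, the kinesin that pushes the poles apart, of 0.50. At the central spindle KIF20A at 1.18 and PRC1 at 1.24 were upregulated, while KIF23 at 0.89 and ECT2 at 0.64 were higher in every LY10 library without passing. KIF20A lies within CDC23 on the other strand, CDC23 was itself upregulated (1.48 ± 0.32), and reads of both genes cannot be told apart where strand is not kept.

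TOP2A (chr19:40627035-40653291, minus strand) had 39.1, 28.2 and 65.7 FPKM in DMSO and 131, 135 and 118 in LY10. MKI67 (chr26:47507658-47537785, minus strand) had 0.263, 0.177 and 0.406 FPKM in DMSO and 1.95, 1.61 and 1.33 in LY10. Both were separated without overlap, TOP2A by a log2 fold change of 1.62 ± 0.30 (adjusted p = 0.0783 from limma) and MKI67 by 2.56 ± 0.41 (adjusted p = 0.0772 from limma). MKI67 rests on 42, 22 and 46 reads in DMSO against 177, 298 and 127 in LY10. FOXM1, the transcription factor of the G2 and M phase wave, had 0.776, 0.0523 and 0.201 FPKM in DMSO and 0.645, 0.670 and 0.272 in LY10, from 38, 2 and 7 reads against 18, 38 and 8. Its groups overlapped and counts this low give no usable fold change.

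MKI67, CDC20, TOP2A, PLK1 and AURKB were the 5 upregulated genes that passed the threshold in all 17 alternative analyses of LY10 against DMSO. For MKI67, the lowest of the 41 genes in DMSO, the change was 1.03 on log2(FPKM + 1), a scale that shrinks changes of genes at low FPKM, and 2.27 to 2.85 in the other 16.

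**Figure D3:**
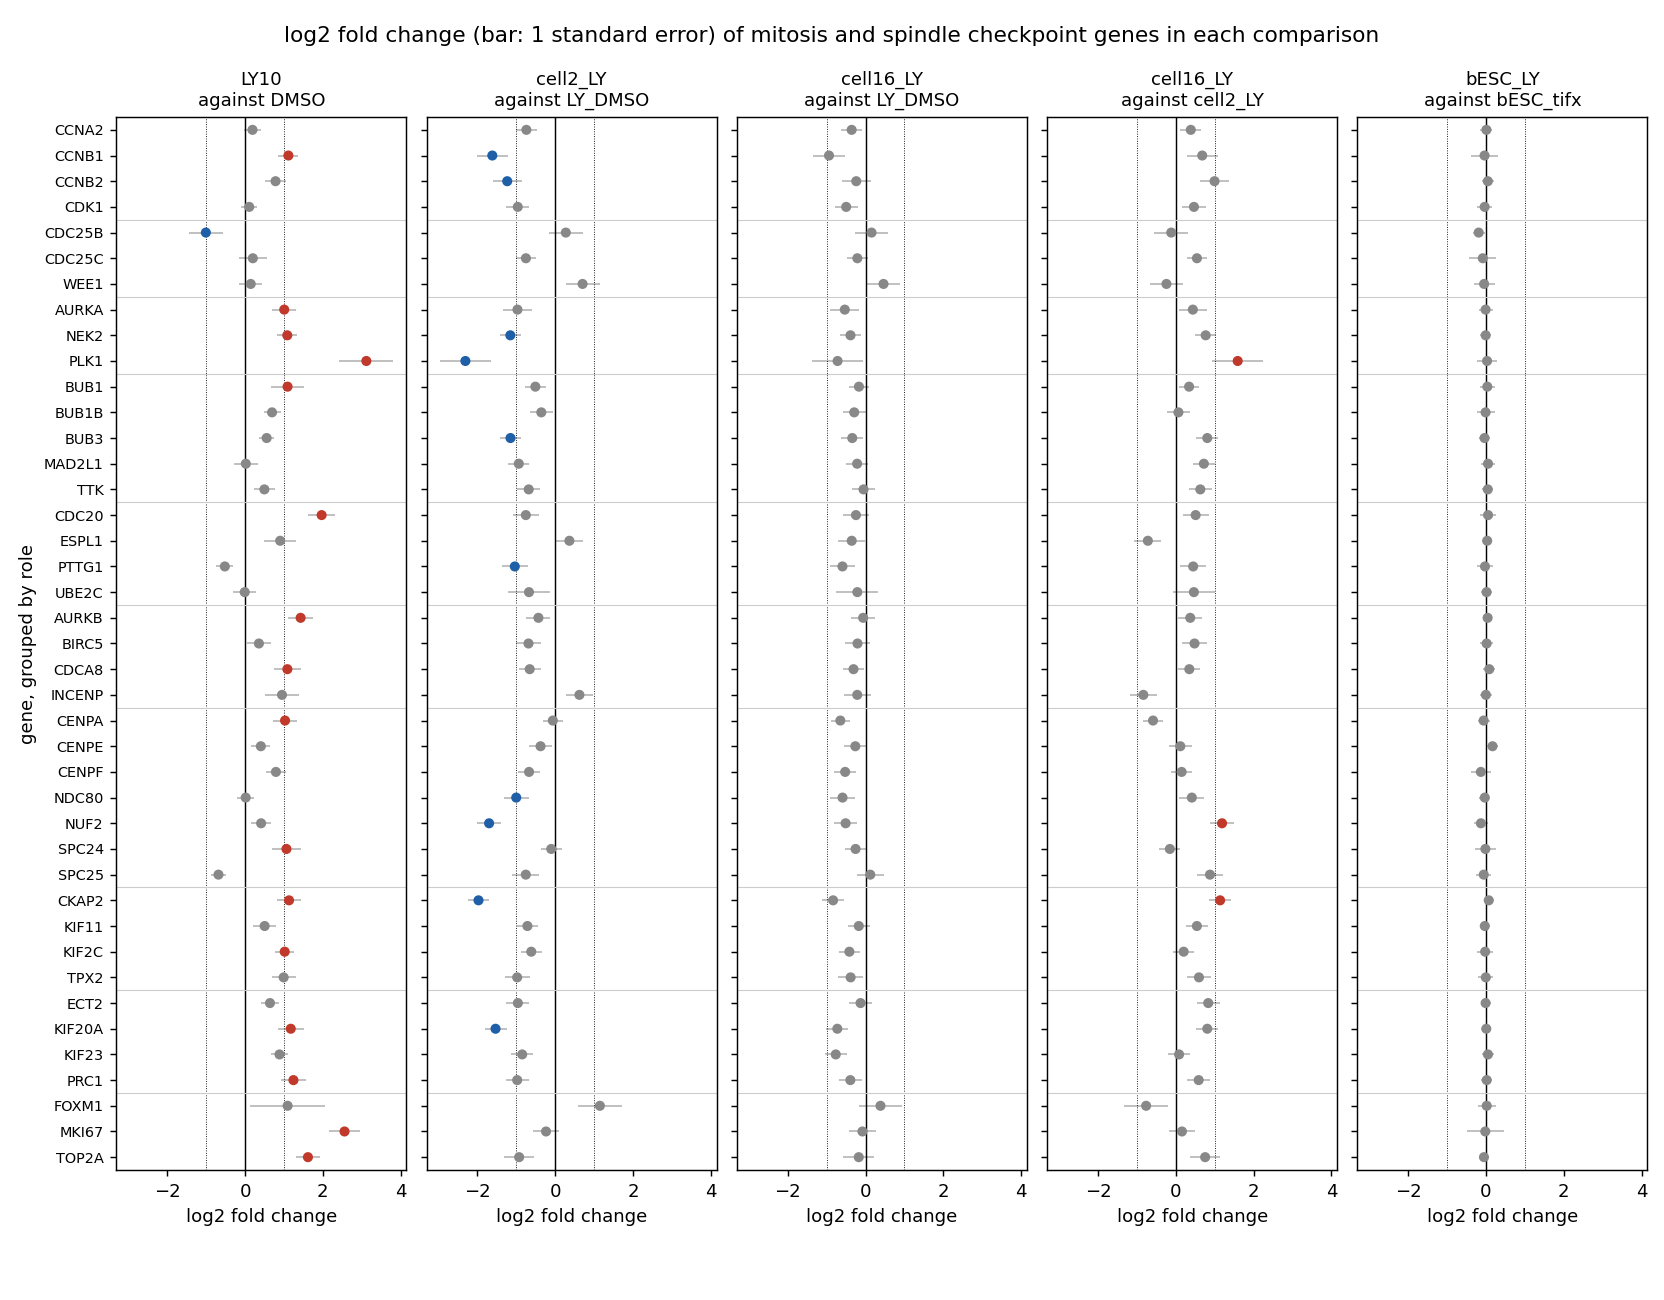
log2 fold change (x axis, first group minus second) of each of the 41 genes (y axis, grouped by role) in the 5 comparisons, with bars of 1 standard error, red and blue points for genes past the study's threshold and dotted lines at a log2 fold change of 1 in each direction. Points lie mostly to the right of 0 in LY10 against DMSO (37 of 41), mostly to the left in cell2_LY against LY_DMSO (36 of 41), and close to 0 in bESCs.

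Beyond the 41 genes, 9 further lists of cell division genes held 138 tested genes in blastocysts. In LY10 against DMSO 18 of these (13.0%) were upregulated, against 6.20% of all genes tested, and 5 (3.62%) downregulated, against 8.51%. The single lists hold 8 to 28 tested genes, so a count of 1 to 3 in a list is not set apart from these shares. In the list of kinetochore and checkpoint partners 6 of 28 were upregulated, and TRIP13, the ATPase that remodels MAD2 (1.47), MAD2L1BP, its adaptor (1.42), and ZWINT (1.14) had the smallest p of these. The anaphase-promoting complex and its inhibitors had calls in both directions, with CDC23 (1.48), ANAPC7 (1.08), ANAPC5 (1.07) and ANAPC2 (1.05) upregulated of 17, and 2 downregulated, the small subunits ANAPC13 (-1.18) and CDC26 (-1.09). SMC1A of cohesin rose (1.82; 1 of 12), as did NCAPH2 (1.58) and NCAPG (1.02) of condensin (2 of 8). Of the list of spindle, centrosome and motors, TUBG1, γ-tubulin (1.47), KIF22 (1.56) and KIF4A (1.05) rose (3 of 25), of cytokinesis CIT (1.23; 1 of 8), and of the MuvB, DREAM and MYB regulators E2F4 (1.02; 1 of 11). None of the 13 tested entry kinases, phosphatases and inhibitors passed. In the G1 list 0 of 16 were upregulated and 3 downregulated, CDKN1A, the p21 inhibitor of cyclin-dependent kinases (-2.01 ± 0.48), CDKN2B (-3.50) and CDK6 (-1.60).

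Markers of other cell types also moved in this comparison. Of 6 tested fibroblast markers 3 were downregulated and all 6 were lower in LY10, with a summed level over the 9 listed markers of 25.9 to 91.0 FPKM in DMSO and 6.10 to 11.7 FPKM in LY10, PRRX1 being at 0 reads in all 6 libraries. The summed trophectoderm markers were at 2937 to 7015 FPKM in DMSO and 4176 to 9901 in LY10, with 0 of 9 called. Of the epiblast markers POU5F1 was upregulated (1.23; 1 of 7 tested), and their sum was 391.6 to 546 FPKM in DMSO against 585 to 901 in LY10. Singly they were mixed, with 4 at a higher mean and 3 at a lower one, LIN28A lowest at -1.16. Of the hypoblast markers PDGFRA rose (3.74) and LAMB1 fell (-1.07), and the other 3 of 5 tested did not pass, with a sum of 95.6 to 161 FPKM in DMSO and 88.3 to 137 in LY10. The part of these in the mitosis genes was not tested.

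In the second blastocyst table the same start of treatment went with lower levels. Of the 41 genes 36 had a lower mean in cell2_LY than in LY_DMSO and 5 a higher one, with a median log2 fold change of -0.76 against 0.00 over all 14529 genes tested. None was upregulated, against 8.71% of all genes, and 10 (24.4%) were downregulated, against 8.34%. Both cell2_LY libraries lay below both LY_DMSO libraries for 30 genes (73.2%), where 26.9% of all genes did so, and above for 3 (7.32%), where 26.9% did. In limma 0 members passed adjustment, as against 0.0138% of all genes, while 24 had an unadjusted p under 0.05, and voom weights also gave 0. Without cell2_LY replicate 2, which leaves 1 library in that group, the median of the members minus that of all genes was -1.07. Without cell2_LY replicate 1 there were 4 calls, CKAP2, NUF2, KIF20A and PLK1, all lower, and without cell2_LY replicate 2 there were 23, of which 22 were lower. With the reads on genes as library size the count was 6 and the median of all genes moved to 0.24, with the members 0.76 below it.

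The values of all 6 libraries are given for the 8 downregulated members with the smallest p, beside the cell16_LY blastocysts that share these controls. CKAP2 (chr12:21581302-21607193, minus strand) had 209 and 231 FPKM in LY_DMSO, 115 and 132 in cell16_LY, and 46.1 and 67.7 in cell2_LY. NUF2, the partner of NDC80 (chr3:5960371-5998688, minus strand), had 101 and 116, then 71.3 and 80.6, then 25.6 and 43.0 FPKM in the same order of groups. Both stepped down from LY_DMSO over cell16_LY to cell2_LY without overlap, and the log2 fold change of cell2_LY against LY_DMSO was -1.97 ± 0.28 for CKAP2 and -1.70 ± 0.30 for NUF2 (adjusted p = 0.0711 from limma for each). KIF20A, the kinesin of the central spindle (chr7:49613257-49621655, plus strand), had 114 and 134 FPKM in LY_DMSO, 78.7 and 70.8 in cell16_LY, and 34.5 and 52.4 in cell2_LY. NEK2 had 52.0 and 48.8, then 35.8 and 41.5, then 19.0 and 26.9 FPKM. The same order without overlap was seen here, with -1.54 ± 0.28 for KIF20A (adjusted p = 0.0711 from limma) and -1.16 ± 0.27 for NEK2 (adjusted p = 0.0791 from limma).

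BUB3 (chr26:42947997-42960067, plus strand), the checkpoint protein that anchors BUB1 and BUB1B, had 270.4 and 228 FPKM in LY_DMSO, 189 and 203 in cell16_LY, and 92.6 and 135 in cell2_LY. The groups stepped down without overlap (-1.15 ± 0.28 for cell2_LY; adjusted p = 0.0814 from limma). CCNB1 had 268 and 325, then 144 and 164, then 60.7 and 152 FPKM, so that cell2_LY replicate 2 lay between the cell16_LY libraries (-1.62 ± 0.40; adjusted p = 0.0834 from limma). PLK1 had 7.002 and 9.94, then 5.34 and 4.79, then 0.759 and 3.58 FPKM. It fell by the largest amount of the 41 genes, and the cell2_LY libraries themselves differed widely, at 23 and 120 reads (-2.31 ± 0.66; adjusted p = 0.0989 from limma). CCNB2 had 48.8 and 60.8, then 53.0 and 40.2, then 16.0004 and 33.4 FPKM. Here cell16_LY overlapped the controls and cell2_LY was below both groups (-1.24 ± 0.37; adjusted p = 0.107 from limma).

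The other downregulated members were NDC80 at -1.004 and PTTG1 at -1.04. Without cell2_LY replicate 1 the log2 fold change of PLK1 was -1.21, and 6 genes lost their call, with -0.96 for CCNB1, -0.71 for CCNB2, -0.56 for PTTG1, -0.88 for BUB3, -0.91 for NEK2 and -0.96 for NDC80. CKAP2, NUF2, KIF20A and PLK1 were the 4 that passed in all 18 alternative analyses. By role, 2 of 3 mitotic kinases, 2 of the 4 genes of CDK1 and its cyclins, 2 of 7 centromere and kinetochore genes, and 1 each of the checkpoint, anaphase, spindle motor and central spindle groups were downregulated. In the passenger complex, the entry switch and the group of TOP2A, MKI67 and FOXM1 no gene passed. PRC1, TPX2, AURKA, CDK1, ECT2 and MAD2L1, with log2 fold changes of -0.98 to -0.94, were below both controls in both libraries and stopped short of the fold. The members with a higher mean were FOXM1 (1.15), WEE1 (0.70), INCENP (0.62), ESPL1 (0.36) and CDC25B (0.27), none past the threshold.

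Over the other lists of cell division genes 23 of 138 tested genes (16.7%) were downregulated, against 8.34% of all genes, and 3 (2.17%) upregulated, against 8.71%. Of the kinetochore and checkpoint partners 7 of 28 fell, among them CENPI (-1.57), SPDL1 (-1.58) and CENPC (-1.02) with the smallest p. Of 12 cohesin genes STAG2 (-1.71), SGO1, which guards centromeric cohesin (-1.44), and SMC1A (-1.35) fell, and of 8 condensin genes NCAPG (-1.56). Among the 8 genes placed in the cytokinesis list DLGAP5 (-1.14) and SEPTIN7 (-1.10) fell. In the spindle list 5 of 25 fell, among them KIF18A (-1.79), NEDD1 (-1.14) and TUBG1 (-1.57), and TACC3, a spindle protein, rose (1.08). In the entry list VRK1 (-1.43) and CCNB3 (-1.46) fell among 13, in the anaphase-promoting complex 0 of 17 passed. Of the 11 MuvB, DREAM and MYB regulators RBBP4 (-1.95) and LIN37 (-1.39) fell and MYBL2, the B-MYB activator of mitotic genes, rose (1.49). Of 16 G1 genes CDKN1A rose (1.64 ± 0.38) and CCNE2 fell (-1.79).

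Trophectoderm markers had the opposite sign in cell2_LY. All 9 had a higher mean than in LY_DMSO and 2 were upregulated, GATA2 (1.99) and CDX2 (2.78), with a summed level of 5607 and 8106 FPKM against 5364 and 4395. The summed epiblast markers were at 498 and 367 FPKM against 665 and 523, DPPA3 being downregulated (-1.59). Of the 7 tested, 4 had a lower mean and 3 a higher one. PDGFRA of the hypoblast list fell (-2.01), while the summed hypoblast markers were at 138 and 132 FPKM against 147 and 128. Fibroblast markers summed to 10.95 and 16.1 FPKM against 11.8 and 18.3, with 0 of 5 tested called, and of the cumulus list STAR rose (1.23). The part of cell composition in the mitosis genes was not tested.

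LY10 and cell2_LY carry the same start of treatment and have separate controls. Of the 41 genes 33 were positive in the first comparison and negative in the second, and for 18 of them neither comparison had overlapping libraries. The 5 genes upregulated in LY10 and downregulated in cell2_LY were PLK1, CCNB1, KIF20A, CKAP2 and NEK2. These patterns were counted for the 41 genes only. Taken singly, 13.8% of all genes had every LY10 library above DMSO, and 26.9% had every cell2_LY library below LY_DMSO. CDKN1A, outside the 41 genes, changed in the reverse order, down in LY10 and up in cell2_LY. LOC780876, the MAD2L1-like gene, did not change sign and was lower without overlap in both comparisons (-0.84 and -1.11). The difference between the 2 tables was not tested, since each was normalized on its own and the concentration of LY in the second is not given. Vehicle levels also lay apart, for CCNB1 with a mean of 112 FPKM in DMSO and 296 in LY_DMSO, and for PLK1 with 1.82 and 8.47.

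**Figure D4:**
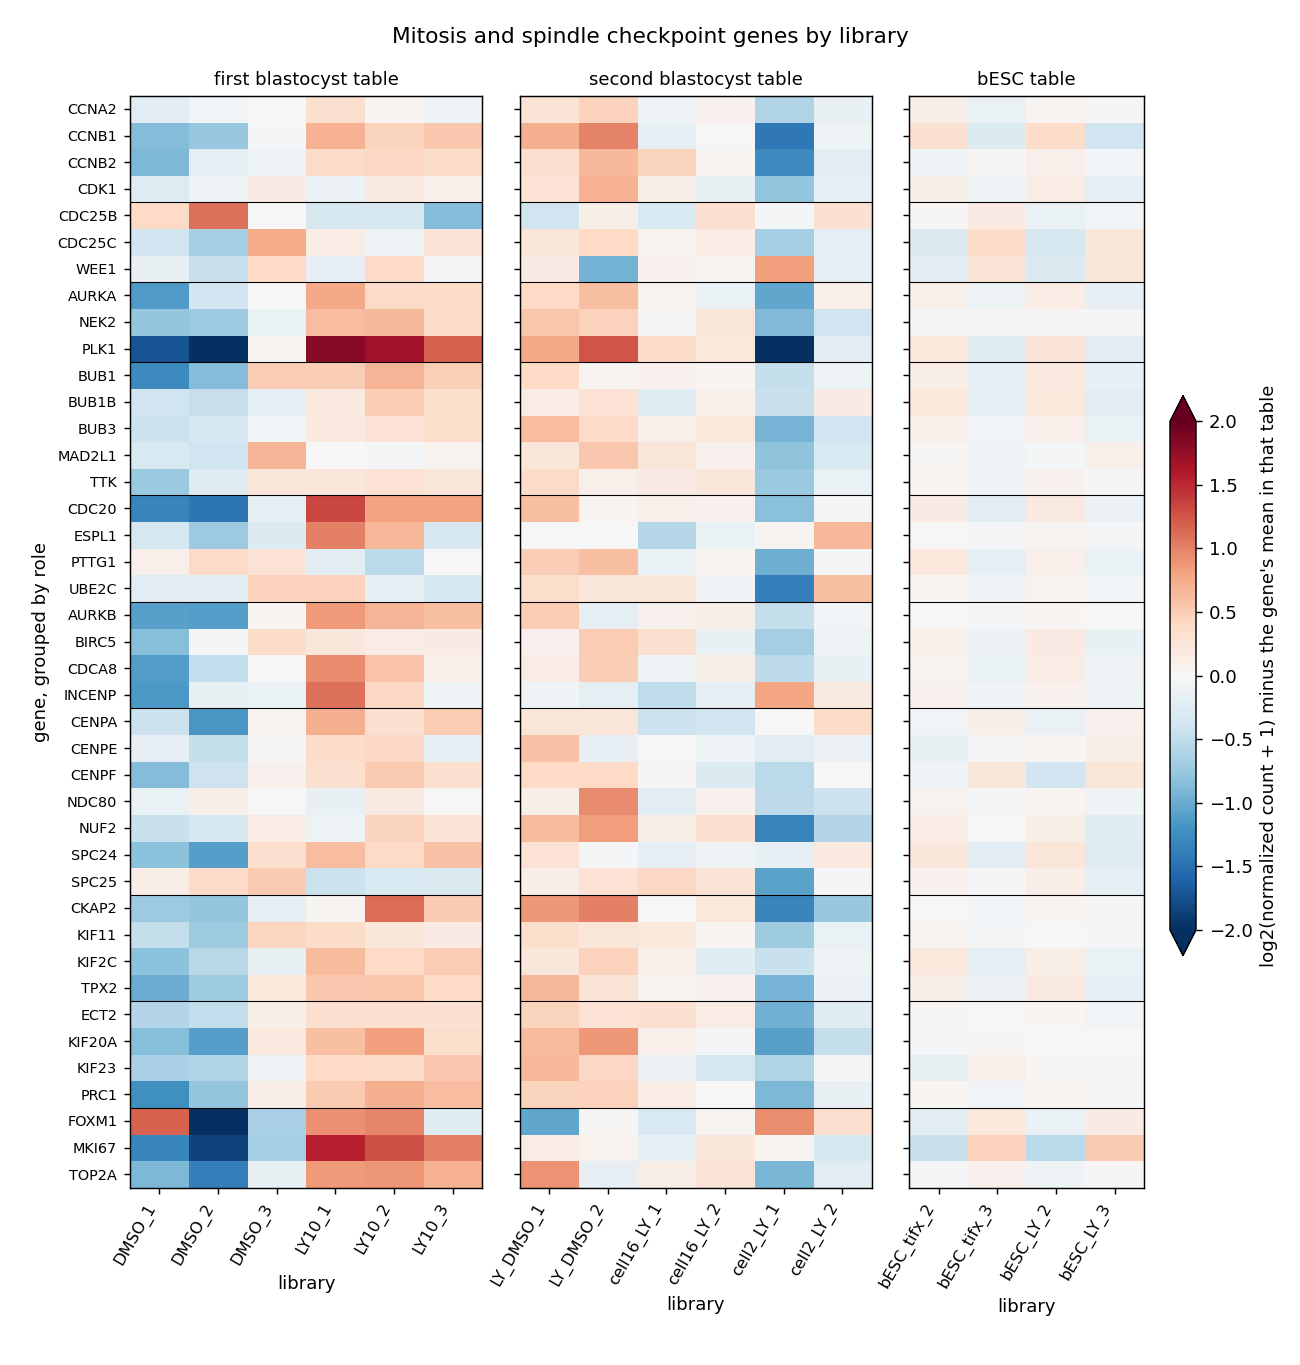
Heat map of log2(normalized count + 1) minus the gene's mean within its table (colour, red above and blue below) for the 41 genes (rows, grouped by role with lines between groups) in each library (columns, 3 panels for the 3 tables); the MAD2L1 row of the bESC panel is another locus than in the blastocyst panels. DMSO replicates 1 and 2 and cell2_LY replicate 1 are mostly blue, LY10 and LY_DMSO mostly red, DMSO replicate 3 lies between, and the bESC panel is pale.

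Treatment from the 16-cell stage was compared with the same vehicle blastocysts. Of the 41 genes 37 had a lower mean in cell16_LY and 4 a higher one, with a median log2 fold change of -0.29 against -0.01 over all genes. No member passed the threshold, where 3.25% of all genes tested were upregulated and 1.97% downregulated. Every cell16_LY library was below every LY_DMSO library for 25 members (61.0%), against 22.0% of all genes, and above for 0, against 20.9%. In limma 0 members and 0% of all genes passed adjustment, 5 members had an unadjusted p under 0.05, all lower, and voom weights called 0. Without LY_DMSO replicate 1 there was 1 call, NDC80, which was lower.

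The 5 genes with an unadjusted p under 0.05 were CKAP2 (-0.83 ± 0.28), KIF23, the kinesin of centralspindlin (-0.76 ± 0.28), KIF20A (-0.73 ± 0.28), CENPA (-0.65 ± 0.25) and CCNB1 (-0.94 ± 0.40). Their adjusted p from limma lay between 0.583 and 0.646. CENPA read 41.4 and 41.3 FPKM in LY_DMSO and 25.99 and 26.8 in cell16_LY, and KIF23 25.2 and 21.3 against 14.7 and 12.6, so the 2 groups were apart with a narrow spread. In cell2_LY CENPA had 34.8 and 45.03 FPKM, one library below and one above these controls. None of the 138 further cell division genes passed in cell16_LY, where 97 had a lower mean and 41 a higher one. Of the trophectoderm markers IFNT2, an interferon tau gene, rose (3.36), and the 7 tested epiblast markers all had a lower mean, with 0 called; their part in the mitosis genes was not tested.

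The direct comparison of start stages, cell16_LY against cell2_LY, stands for the difference between both treatments, since their vehicle is shared. A higher mean in cell16_LY was found for 34 of 41 genes and a lower one for 7, with a median log2 fold change of 0.47 against 0.04 over all genes. Upregulated were 3 members (7.32%), against 5.58% of all genes, and downregulated 0, against 5.77%, so the count of calls was near the background. The libraries were separated upward for 24 members (58.5%), where 28.2% of all genes were, and downward for 4 (9.76%), where 26.3% were. After adjustment 0 members and 0% of all genes passed in limma, and 0 members passed adjustment with voom weights. At an unadjusted p under 0.05 in limma there were 12 members.

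The 3 genes were CKAP2 (1.14 ± 0.28; adjusted p = 0.193 from limma), NUF2 (1.19 ± 0.30; adjusted p = 0.193 from limma) and PLK1 (1.59 ± 0.66; adjusted p = 0.259 from limma), whose levels are given above. For 14 genes the 3 groups stepped from cell2_LY over cell16_LY to LY_DMSO without any overlap, among them PLK1, CDK1, CCNA2, BUB3, NDC80, TPX2 and PRC1. This order was not counted over all genes. Without overlap, 28.2% of all genes had cell16_LY above cell2_LY and 22.0% had it below LY_DMSO. Without cell2_LY replicate 1 there was 1 call, ESPL1, which was lower, and CKAP2, NUF2 and PLK1 stood at 0.86, 0.82 and 0.50, while without cell2_LY replicate 2 there were 15, of which 14 were higher. With the reads on genes as library size no member was higher past the threshold and 1, INCENP, was lower, and all genes had a median of -0.18. Of the 138 further genes 14 (10.1%) were upregulated, against 5.58% of all genes, and 6 (4.35%) downregulated, against 5.77%, the former with STAG2 (1.27), NEDD1 (1.32) and CENPI (1.34), the latter with MYBL2 (-1.37) and PKMYT1, a kinase that holds CDK1 inactive (-1.14). GATA2 (-1.94) and CDX2 (-1.84) were lower and IFNT2 higher (2.87) among the trophectoderm markers in this comparison, and their part was not tested.

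In bESCs the mitosis genes did not separate the LY cells from their control. A higher mean in bESC_LY was found for 18 of 41 genes and a lower one for 23, with a median log2 fold change of -0.01, the same as over all 16012 genes tested. None passed the threshold, where 0.0375% of all genes were upregulated and 0.0375% downregulated, and 0 members had an unadjusted p under 0.05. Both bESC_LY libraries were above both controls for 3 members (7.32%), against 6.83% of all genes, and below for 1 (2.44%), against 7.36%. Adjusted p values under 0.05 were found for 0 members and for 0% of all genes in limma, and voom weights called 0 members as well. These counts come from a fit that takes no account of the library number.

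The changes ran from -0.19 ± 0.15 for CDC25B to 0.17 ± 0.14 for CENPE. CDC25B had 13.1 and 14.5 FPKM in bESC_tifx and 11.8 and 12.4 in bESC_LY, and CENPE 7.89 and 8.58 against 8.98 and 9.51. These 2 genes, with CKAP2 and AURKB, were the 4 whose groups did not overlap. CDC20 had 68.3 and 52.9 FPKM in bESC_tifx and 69.1 and 56.3 in bESC_LY, and CCNB1 154 and 103 against 161 and 94.3. Both genes were higher in both number 2 libraries than in both number 3 libraries. Within a number, CDC20 was slightly higher with LY in each, while CCNB1 was higher with LY in number 2 and lower in number 3. The same was seen for 25 of the 41 genes, while 8 were lower in both number 2 libraries than in both number 3 libraries. These counts were not made over all genes, where the deviations of same-numbered libraries had a correlation of 0.79. MKI67 was the clearest of those 8, with 45.4 FPKM in bESC_tifx and 42.6 in bESC_LY of number 2 and with 85.4 and 88.8 of number 3. The others were KIF23, CENPA, CENPF, TOP2A, CDC25C, WEE1 and FOXM1. The trophectoderm markers also followed the number, with summed levels of 296 and 256 FPKM in number 2 and 113 and 98.7 in number 3. Other lists followed it the opposite way. Hypoblast markers summed to 43.7 and 41.3 FPKM in number 2 and 62.3 and 58.9 in number 3. Cumulus markers had 30.2 and 25.5 against 71.4 and 65.1, and fibroblast markers 75.6 and 73.9 against 87.5 and 85.9. The epiblast sums overlapped. The part of these lists was not tested. None of the 142 further cell division genes tested in bESCs passed.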

How the data were processed

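The authors aligned reads, counted them on genes and deposited FPKM (fragments per kilobase of gene, scaled to sequencing depth) under the name of normalized counts; the submitters' processing notes name HISAT2 2.0.5, StringTie 1.3.3b, featureCounts 1.5.0-p3 and DESeq2 1.20.0, while the study's methods also name STAR. The deposited tables also hold the authors' own fold changes and p-values, which were not used. FPKM times gene length gave whole reads within 0.02 for 100% of values, and hence the library size behind the FPKM. A normalized count is the reads per that library size, scaled to the table's geometric mean library size. The threshold for a call, on the unadjusted p and the fold change, is the one the study applied to its own tests. Genes averaging 10 or more normalized counts entered limma 3.58.1 (R 4.3.3), as log2(normalized count + 1), with lmFit and a trended eBayes. The second table's 3 groups shared a single fit, no fit dropped a library, and p-values were adjusted over all genes of the table. With 2 or 3 embryos or cultures per group, p-values measure only the spread between these libraries. No count model other than voom weights was run.

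Libraries carry no molecular identifiers, so read numbers state counting depth only. Every library is labelled batch 1, and no batch could be compared. The gene symbols, role groups, other lists and named genes were chosen with earlier results of these data known: values per library are given for the 8 called members with the smallest p in each comparison and for CDK1, CCNB1, CCNB2, CCNA2, PLK1, AURKA, AURKB, BUB1, MAD2L1, TTK, CDC20, PTTG1, ESPL1, FOXM1 and MKI67 in LY10 against DMSO, other called members with their fold change, and at most 3 called genes per other list. LOC780876, CSKMT, ANAPC7, ANAPC5, ANAPC2, TACC3 and the values given per library for CDC25B, CENPA, KIF23 and for genes in bESCs were chosen after their values were seen. Oocyte markers had 0 called genes in each blastocyst comparison, and cumulus markers only STAR. CEP192 is not analysed here in blastocysts. Alternatives changed the pseudocount (0.5 or 5), left out the filter or raised it to 50, and tried other library sizes, quantile normalization, log2(FPKM + 1), voom and sample weights, a replicate block, the 2 compared groups alone and each library left out. A search of promoters for motifs was planned and not run. Python 3.11.15 with pandas 2.3.3 and matplotlib 3.10.9 summarised the fits and drew the plots.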

Additional observations from a re-analysis of the deposited data

Results flagged for a closer look

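For 18 of the 41 genes every LY10 library lay above every DMSO library and every cell2_LY library below every LY_DMSO library, although both treatments began at the 2-cell stage. They are CDC20, PLK1, CCNB1, CCNB2, AURKA, BUB3, KIF20A, KIF23, KIF2C, CENPF, CDCA8, TPX2, TOP2A, CKAP2, PRC1, ECT2, NEK2 and MKI67. What draws attention is that all libraries moved one way in the first table and the opposite way in the second, and the difference between the tables was not tested. Some gaps in the second table were narrow. For MKI67 the nearest libraries were at 1.478 FPKM in cell2_LY and 1.485 in LY_DMSO (log2 fold change -0.24 ± 0.34). For CDC20 they were at 59.4 and 62.7 FPKM. DMSO replicates 1 and 2 were both below every LY10 library for 31 genes, and for 24 this held for DMSO replicate 3. These patterns were counted for the 41 genes only, so no joint share over all genes stands beside them. Singly, 13.8% of all genes had every LY10 library above DMSO, and 26.9% had every cell2_LY library below LY_DMSO.

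The effect of LY differed between the 16-cell and the 2-cell start past the study's threshold for 3 genes, in the contrast of both groups that share the LY_DMSO vehicle. On the log2 scale cell16_LY was above cell2_LY by 1.14 for CKAP2, by 1.19 for NUF2 and by 1.59 for PLK1, in both libraries of each group. The adjusted p from limma was 0.193, 0.193 and 0.259, so none passed adjustment. The 3 genes are 7.32% of the 41, near the 5.58% of all genes higher by the same rule. Each of the 3 lost the call in at least 1 alternative, and all 3 lost it without cell2_LY replicate 1 (0.86, 0.82 and 0.50 in the same order) and with reads on genes as library size (0.93, 0.98 and 1.38).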

How the results depend on the processing

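With 2 or 3 embryos per group the calls rest on single libraries more than on the settings. In LY10 against DMSO the count of called members was between 8 and 20 with 1 library left out. Otherwise it was between 13 and 22, the latter with sample weights. Those weights put 23 members under an adjusted p of 0.05 in limma, beside 1551 of all genes tested. The median of the members lay between 0.67 and 1.03 without 1 library. Lower genes made up 57.8% of all genes called and 45.01% under quantile normalization, while 14 members were then called, all higher. In cell2_LY against LY_DMSO 6 members were called with reads on genes as library size and 6 with quantile normalization, against 10, and 4 to 23 with 1 library left out, with a median of -1.05 to -0.45. Lower genes were 48.9% of those called and 26.8% with reads on genes. In cell16_LY against LY_DMSO 0 to 1 members were called without 1 library, with a median of -0.36 to -0.29, and on log2(FPKM + 1) the median was -0.26 against -0.29. In cell16_LY against cell2_LY the count was 1 with reads on genes as library size and 1 to 15 without 1 library, with a median of 0.16 to 0.78, and lower genes were 50.9% of those called against 75.0% with reads on genes. In bESCs 0 members were called throughout, and the median lay between -0.042 and 0.074 without 1 library. The cause of these shifts was not tested. Among the members recomputed under every alternative, those called and the 15 named by rule in LY10 against DMSO, no call reversed. Genes of the other lists were not recomputed gene by gene. Adjusted p under 0.05 in limma was also reached by 21 members without DMSO replicate 3, where 1964 of all genes tested reached it.

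Same-numbered LY10 and DMSO libraries did not deviate together (correlations over genes of -0.12, 0.17 and -0.10). No pairing by number was thus seen there, and 3 libraries per group cannot settle whether there is one. With the replicate number as a block 16, 10, 0, 3 and 0 members were called in the 5 comparisons in the order above, against 17, 10, 0, 3 and 0. In bESCs the correlation was 0.79 over 2 pairs, and the block moved the count of all genes called from 12 to 146. Of the members 3 then had an unadjusted p under 0.05 and 0 passed the fold or the adjustment (smallest adjusted p = 0.391 from limma). Cell16_LY numbers were also crossed, chosen after seeing the data, which gave 0 and 3 called members against LY_DMSO and cell2_LY. Depth limits FOXM1, CDC25B, MKI67 and PLK1, with under 50 reads in at least 1 blastocyst.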
